A study of Rattus norvegicus with 8 samples.

Results

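The lysosomal hydrolases and membrane proteins examined here were 33 named genes: cathepsins, glycosidases, lipid enzymes, other hydrolases, sterol and lipid carriers, membrane proteins, a subunit of the proton pump and the regulator Tfeb. They were found as the non-control spots that carry one of these gene names, which gave 31 of the 33 among the 36121 genes of the array. Ctsl1 and Gla had no spot of that name. A gene was tested when the scanner software marked one of its probes as well above background on each of the 4 P200 arrays or each of the 4 P20 arrays, and 30 of the 31 were, among 15651 genes tested in all.

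RNA came from NR8383, an established rat alveolar macrophage line, derived from the lung lavage of a normal rat. The cells were compared at passage 200 (P200) and at passage 20 (P20), with 4 samples each that the labels call biological replicates. All 8 were seeded 48 h before harvest in the same serum-containing medium, and each was hybridised to its own one-colour Agilent array. Nothing further is given on where the replicates came from, so the p-values measure the spread between these samples.

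Lysosomes digest material taken up by phagocytosis and endocytosis, and the cell's own worn parts, which makes them a large compartment of alveolar macrophages that clear particles and surfactant from the airspace. Their enzymes work at the low pH set by the vacuolar proton pump: cathepsins cut proteins, glycosidases trim sugar chains, and lipases, sphingomyelinase, ceramidase and thioesterases break down lipids. The transcription factor TFEB binds E-box sequences of the CLEAR type in front of many of these genes.

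The share of spots well above background ran from 51.02% to 54.47% between arrays, with no saturated spot. All arrays lay on 1 slide and were read in 1 scan. P200 replicates 2, 3 and 4 shared a row of the slide with P20 replicate 1, and P200 replicate 1 shared the other row with P20 replicates 2, 3 and 4. Over all genes tested, 5.99% were higher and 5.53% lower in P200, the shares to set beside the marker counts that follow. Of 11 macrophage markers tested none was higher and 3 were lower in P200 (Cd14, Itgam and Siglec1). Their summed level was 1159 to 1184 in P200 arrays and 1203 to 1423 in P20 arrays, in units of the array's 75th percentile. Such a sum rests mostly on the brightest probes and does not measure the list as a whole. Here they were Lyz2, at a mean log2 level of 9.26 in P200 and 9.47 in P20, Tyrobp and Fcer1g, and none of these passed. The other 8 macrophage markers tested did not pass and were above background on all 4 arrays of both groups. They were Ptprc, Csf1r, Spi1, Mrc1, Lyz2, Tyrobp, Fcer1g and Mertk. Of the 11 changes 10 were negative and 1 was positive, that of Mrc1 at 0.51. The mature macrophage marker Adgre1 was above background on no array, and the scavenger receptor Marco on 1 P200 array and 0 P20 arrays. The epithelial markers Epcam, Cdh1, Krt8, Krt18, Sftpa1, Sftpb and Sftpd, the fibroblast markers Col1a1 and Pdgfra, the endothelial markers Kdr and Tek, the granule proteins Mpo and Elane, and the osteoclast fusion gene Dcstamp were above background on no array. Other markers were above background on all 4 arrays of both groups. They were Col1a2 and Dcn (fibroblast), Pecam1, Cdh5 and Vwf (endothelial), Camp (granulocyte), Cd3d (lymphocyte), and Calcr, Oscar, Nfatc1, Itgb3 and Car2 (osteoclast). Of 6 osteoclast markers tested 1 was higher in P200, the receptor Tnfrsf11a, above background on 4 P200 arrays and 1 P20 array and past the test in 5 of 17 alternative settings. The list had a summed level of 22.4 to 26.7 in P200 arrays and 26.1 to 28.6 in P20 arrays. Most of that sum is Nfatc1, at a mean log2 level of 4.29 in P200 and 4.305 in P20, which did not pass. Of 4 endothelial markers 1, Flt1, was higher, the lone epithelial and granulocyte markers tested, Cldn18 and Camp, were lower, and 2 fibroblast markers and 1 lymphocyte marker did not pass. Siglec1 passed in 12 of 18 alternative settings and Itgam in 17, and Cd14, Camp, Flt1 and Cldn18 passed in every setting that could test them. The part of these markers in the lysosomal results was not tested. In a whole culture, fewer cells that express a gene and less RNA per cell cannot be told apart.

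In P200 cells the cathepsins Ctsh and Ctsc and the acid sphingomyelinase Smpd1 fell to 0.676, 0.762 and 0.785 of their P20 signal, and the palmitoyl-protein thioesterase Ppt1 rose to 1.33 times its P20 signal. The other 26 lysosomal genes did not pass the test (limma, adjusted p under 0.05 over all 15651 genes). The 4 that passed are 13.3% of the 30, against 11.5% of all genes tested, a share near the background. By direction, 1 of the 30 was higher in P200, against 5.99% of all genes, and 3 were lower, against 5.53% of all genes. The 4 P200 arrays lay wholly above or wholly below the 4 P20 arrays for 7 of the 30 (23.3%), against 19.6% of all genes. Of these, 1 had its P200 arrays above (9.49% of all genes) and 6 had them below (10.1% of all genes).

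Each change below is the log2 ratio of P200 to P20 with the standard error of the fit, from 4 arrays per group. Levels are log2 signal relative to the 75th percentile of the array, and levels of different genes come from different probes and are not comparable. The median change of the 30 genes was -0.02, with a range of -0.59 to 0.41, 17 of them negative and 13 positive. None changed by a log2 value of 1 or more, which 3.18% of all genes did. For 24 of the 30 (80%) the whole 95% confidence interval of the change lay within 0.5 on either side of 0, a change of 1.41-fold, against 70.5% of all genes.

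**Figure D1:**
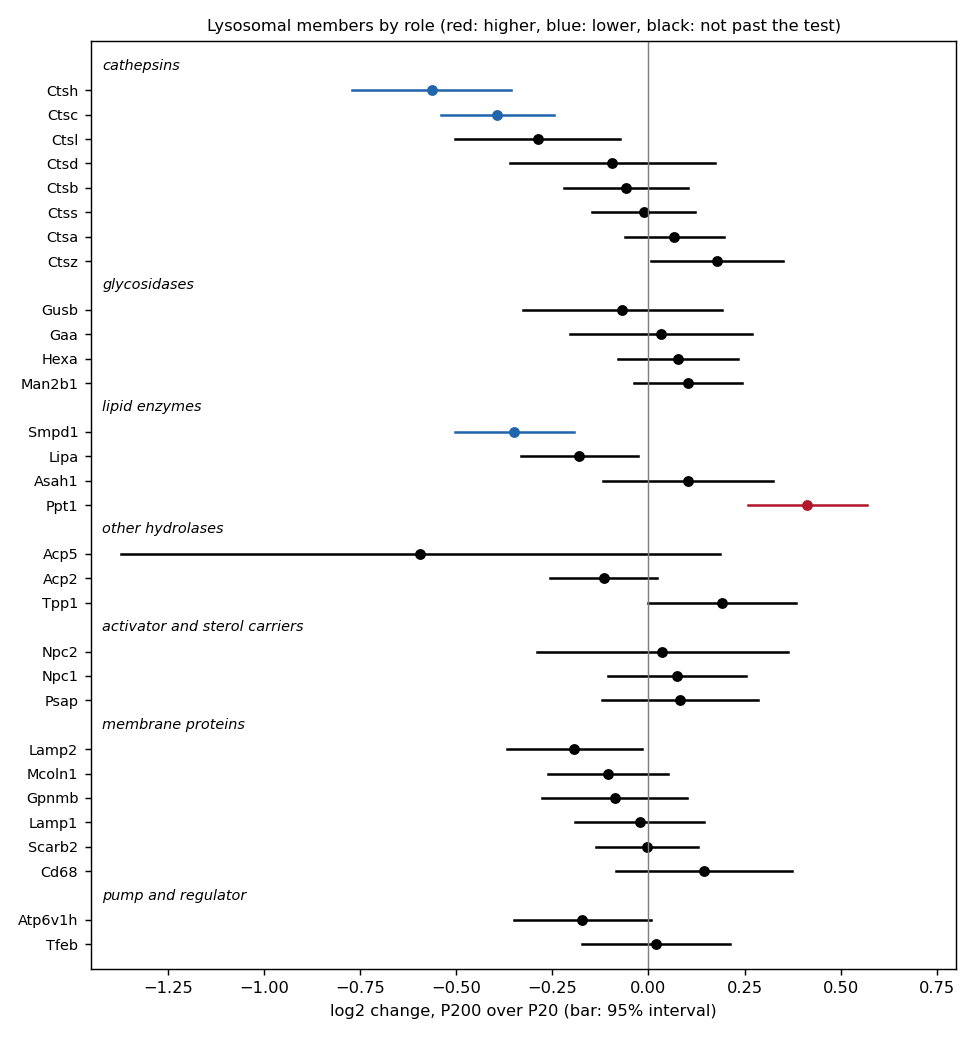
Change in log2 signal of P200 over P20 for each of the 30 tested lysosomal genes, with bars for the 95% confidence interval of the fit, grouped by role. Ctsh, Ctsc and Smpd1 lie below 0 and Ppt1 above it past the test, while most other intervals include 0 and Acp5 has the widest.

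Ctsh encodes cathepsin H, which trims amino acids from the N-terminal end of proteins. Its probe maps to chr8:94986941-94989247 on the plus strand of rn4, per the files, a span of 2307 bases for a probe of 60, so by this mapping it crosses at least 1 intron. The sequence is shown because the largest change among the genes past the test was read with it.
Ctsh probe: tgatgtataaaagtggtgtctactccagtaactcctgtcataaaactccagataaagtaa

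The level of Ctsh was 2.75, 2.88, 3.02 and 2.88 in P200 replicates 1 to 4, against 3.42, 3.54, 3.25 and 3.58 in P20 replicates 1 to 4. Every P200 array was below every P20 array, and the nearest pair was P200 replicate 3 and P20 replicate 3. Ctsh fell by 0.56 ± 0.09 in P200 (limma adjusted p = 0.00416), so that P20 cells had 1.48-fold the signal. Within the slide rows the difference was -0.49 in the first and -0.70 in the second.

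Ctsc, cathepsin C or dipeptidyl peptidase I, activates granule serine proteases by removing dipeptides. Its probe lies at chr1:144661035-144661094 of rn4. The level was 4.82, 4.86, 4.99 and 4.97 in P200 replicates 1 to 4, against 5.37, 5.31, 5.27 and 5.26 in P20 replicates 1 to 4. The groups did not overlap, and the arrays of each group lay close together. Ctsc fell by 0.39 ± 0.06 in P200 (limma adjusted p = 0.00463), with 1.31-fold the signal in P20 cells and within-row differences of -0.43 and -0.46. A second Ctsc probe, for a predicted transcript, was above background on 0 P200 arrays and 2 P20 arrays and was not tested, with means of -4.60 ± 0.71 in P200 and -3.60 ± 0.49 in P20 (SD, n = 4 each).

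Ctsl, the broad endopeptidase cathepsin L, did not pass the test but its groups did not overlap. Its level was 0.89, 1.20, 1.24 and 1.04 in P200 replicates 1 to 4, against 1.49, 1.27, 1.31 and 1.44 in P20 replicates 1 to 4. The highest P200 array and the lowest P20 array were nearly level. The change was -0.29 ± 0.09 (limma adjusted p = 0.0907), and with slide row as a block it passed, at an adjusted p of 0.0313 and a change of -0.39.

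The other 5 tested cathepsins did not pass. Ctsb, the abundant peptidase cathepsin B, changed by -0.06 ± 0.07, Ctss, the cathepsin that trims the invariant chain, by -0.01 ± 0.06, and Ctsa, the protective protein of the galactosidase and sialidase complex, by 0.07 ± 0.06. Ctsz, a carboxypeptidase, had a change of 0.18 ± 0.08 (limma adjusted p = 0.194). Ctsd, the aspartic protease cathepsin D, stood at 8.04, 8.53, 8.47 and 8.60 in P200 replicates 1 to 4, against 8.53, 8.49, 8.50 and 8.50 in P20 replicates 1 to 4. Its P20 arrays were almost level, and P200 replicate 1 lay below all the others. The Ctsd change of -0.09 ± 0.12 turned to 0.03 without P200 replicate 1. Ctsk, cathepsin K of bone-resorbing cells, was above background on 1 P200 array and 2 P20 arrays and was not tested.

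**Figure D2:**
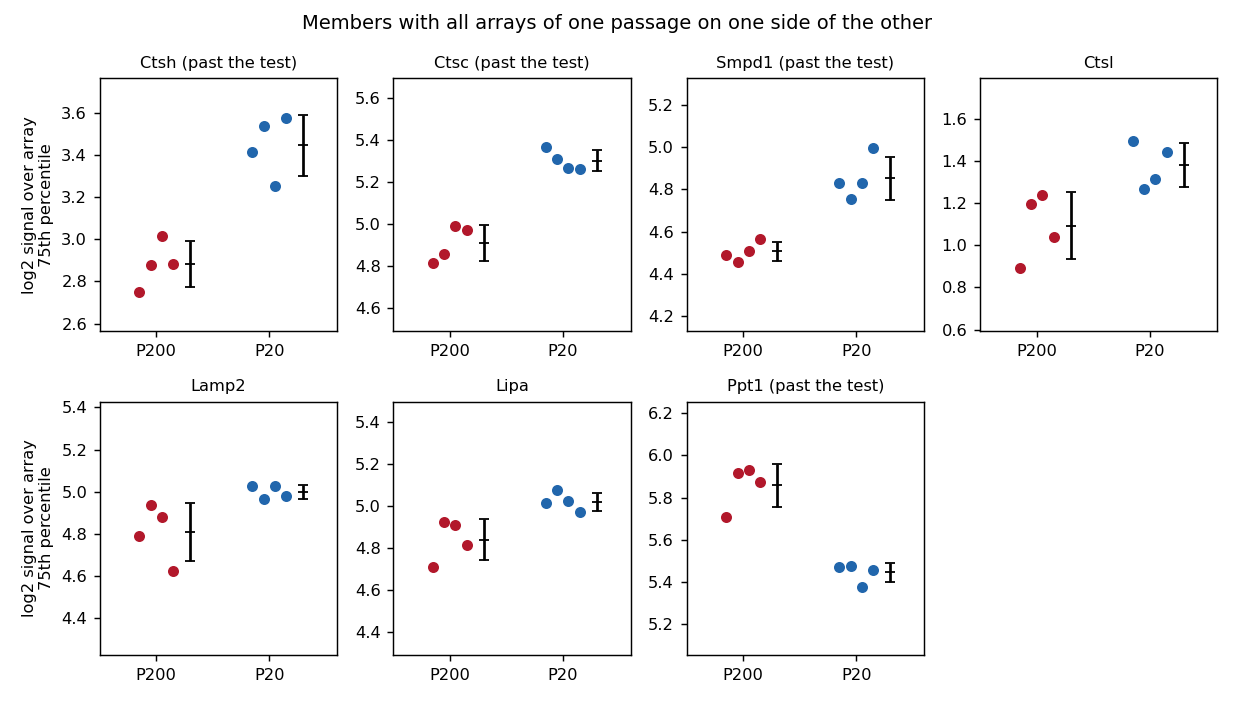
Log2 signal relative to the array's 75th percentile for the 7 lysosomal genes whose groups did not overlap, with one point per array, P200 left of P20, and the group mean as a line. Only Ppt1 has its P200 arrays above its P20 arrays, and the gap is narrow for Ctsl, Lipa and Lamp2.

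Of the 4 glycosidases tested none passed (limma), and 0 of 4 had an unadjusted p under 0.05, against 23.8% of all genes. Gaa, which degrades glycogen, changed by 0.03 ± 0.10, Gusb, the beta-glucuronidase, by -0.07 ± 0.11, Hexa, the alpha chain of hexosaminidase, by 0.08 ± 0.07, and Man2b1, the alpha-mannosidase, by 0.10 ± 0.06. Their adjusted p-values ran from 0.38 to 0.889. A probe that the files name by a transcript, and describe as the galactosidase Gla, had means of 2.23 ± 0.12 in P200 and 2.34 ± 0.09 in P20 (SD, n = 4 each). Its difference of -0.12 ± 0.08 did not pass (limma adjusted p = 0.45), and it is not counted among the 30.

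The lipid enzymes Smpd1 and Ppt1 moved in opposite directions. Smpd1, the acid sphingomyelinase that releases ceramide, stood at 4.49, 4.46, 4.51 and 4.57 in P200 replicates 1 to 4, against 4.83, 4.75, 4.83 and 5.00 in P20 replicates 1 to 4. The P200 arrays lay within a narrow band below all P20 arrays. Smpd1 fell by 0.35 ± 0.07 in P200 (limma adjusted p = 0.0113), with 1.27-fold the signal in P20 cells and within-row differences of -0.32 and -0.37. Its probe lies at chr1:163282591-163282650 of rn4. The probe of Tpp1, a tripeptidyl peptidase, lies 208.3 kb away, and Tpp1 changed by 0.19 ± 0.08 without passing (limma adjusted p = 0.212).

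Ppt1, which removes palmitate from proteins during their breakdown, stood at 5.71, 5.92, 5.93 and 5.87 in P200 replicates 1 to 4, against 5.47, 5.48, 5.38 and 5.46 in P20 replicates 1 to 4. All P200 arrays were higher, and P200 replicate 1 was the closest to the P20 arrays. Ppt1 rose by 0.41 ± 0.07 in P200 (limma adjusted p = 0.0047), a signal 1.33-fold that of P20 cells, with within-row differences of 0.44 and 0.27. Its probe lies at chr5:142173341-142173400 of rn4.

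Lipa, the acid lipase that frees cholesterol from its esters, stood at 4.71, 4.93, 4.91 and 4.82 in P200 replicates 1 to 4, against 5.01, 5.08, 5.02 and 4.97 in P20 replicates 1 to 4. The groups did not overlap, by a small margin, and the change of -0.18 ± 0.07 did not pass (limma adjusted p = 0.136). Asah1, the acid ceramidase that acts after sphingomyelinase, changed by 0.10 ± 0.10.

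Set against each other, 0 of the 8 tested cathepsins were higher and 2 were lower, with a median change of -0.08. Of the 8 glycosidases and lipid enzymes 1 was higher and 1 was lower, with a median change of 0.06, or 0.03 without Ppt1. Each class thus had 2 of 8 (25%) past the test, against 11.5% of all genes. Taken apart, the 4 glycosidases had a median change of 0.055. The 4 lipid enzymes had one of -0.039, with 2 positive and 2 negative changes. Over all genes the median change was 0.00, and a difference between the classes was not tested.

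The class medians by array, taken after each gene's P20 mean was subtracted, were as follows. For the cathepsins they were -0.30, -0.04, -0.08 and -0.04 in P200 replicates 1 to 4, against 0.01, 0.02, -0.05 and 0.01 in P20 replicates 1 to 4. For the glycosidases and lipid enzymes they were -0.04, 0.09, 0.15 and 0.07 in P200 replicates 1 to 4, against 0.01, 0.04, -0.07 and 0.04 in P20 replicates 1 to 4. In each P200 array the cathepsin median was the lower of the pair, and P200 replicate 1 had the lowest value of both classes among P200 arrays. Without P200 replicate 1 the median change of the cathepsins was -0.02 and that of the glycosidases and lipid enzymes 0.11. With slide row as a block the medians were -0.16 and -0.01, so the second changed sign.

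The remaining hydrolases did not pass. The acid phosphatase Acp2 changed by -0.12 ± 0.06. The tartrate-resistant acid phosphatase Acp5, an osteoclast and macrophage enzyme, stood at -4.17, -2.74, -2.76 and -2.36 in P200 replicates 1 to 4, against -2.23, -2.37, -2.56 and -2.50 in P20 replicates 1 to 4. It was above background on 3 P200 arrays and all 4 P20 arrays, and P200 replicate 1 lay below the rest. The Acp5 change was -0.59 ± 0.34 (limma adjusted p = 0.353), and it was -0.21 without P200 replicate 1.

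The carriers and activators did not pass either. Psap, the precursor of the saposins that present sphingolipids to their hydrolases, changed by 0.08 ± 0.09. Npc1, the membrane protein that exports cholesterol, changed by 0.07 ± 0.08. Npc2, its soluble partner, stood at 4.82, 4.39, 4.04 and 4.38 in P200 replicates 1 to 4, against 4.36, 4.40, 4.39 and 4.35 in P20 replicates 1 to 4. The P200 arrays lay on both sides of closely spaced P20 arrays, with an SD of 0.32 in P200 and 0.03 in P20, and the change was 0.04 ± 0.14.

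Among the membrane proteins, 0 of 6 passed (limma), against 11.5% of all genes. Lamp2 alone, 1 of 6, had an unadjusted p under 0.05, against 23.8% of all genes. Lamp2, a heavily glycosylated protein of the lysosomal membrane that takes part in fusion with autophagosomes and in chaperone-mediated autophagy, was read by a pair of probes. The probe used in the test gave 4.79, 4.94, 4.88 and 4.62 in P200 replicates 1 to 4, against 5.03, 4.96, 5.03 and 4.98 in P20 replicates 1 to 4. Its groups did not overlap, and its change was -0.19 ± 0.08 (limma adjusted p = 0.164). The other probe maps to chrX:6931712-6938320 on the plus strand of rn4, a span of 6609 bases, so it crosses at least 1 intron, and its sequence is shown because its groups overlapped.
Lamp2 second probe: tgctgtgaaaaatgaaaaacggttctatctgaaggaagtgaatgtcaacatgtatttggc

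The second Lamp2 probe gave 2.10, 2.26, 2.29 and 2.04 in P200 replicates 1 to 4, against 2.30, 2.33, 2.26 and 2.05 in P20 replicates 1 to 4, a difference of -0.06. The change was thus smaller there, with the same sign. Lamp1, the related membrane glycoprotein, changed by -0.02 ± 0.07, and Scarb2, which carries glucocerebrosidase to the lysosome, by -0.00 ± 0.06. Cd68, the macrophage member of the Lamp family, changed by 0.14 ± 0.10, Mcoln1, the calcium channel of lysosomes, by -0.11 ± 0.07, and Gpnmb, a melanosomal and macrophage glycoprotein, by -0.09 ± 0.08. Atp6v1h, a regulatory subunit of the proton pump, changed by -0.17 ± 0.08, and -0.14 on its second probe. Tfeb itself changed by 0.02 ± 0.08, with a confidence interval of -0.17 to 0.21.

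**Figure D3:**
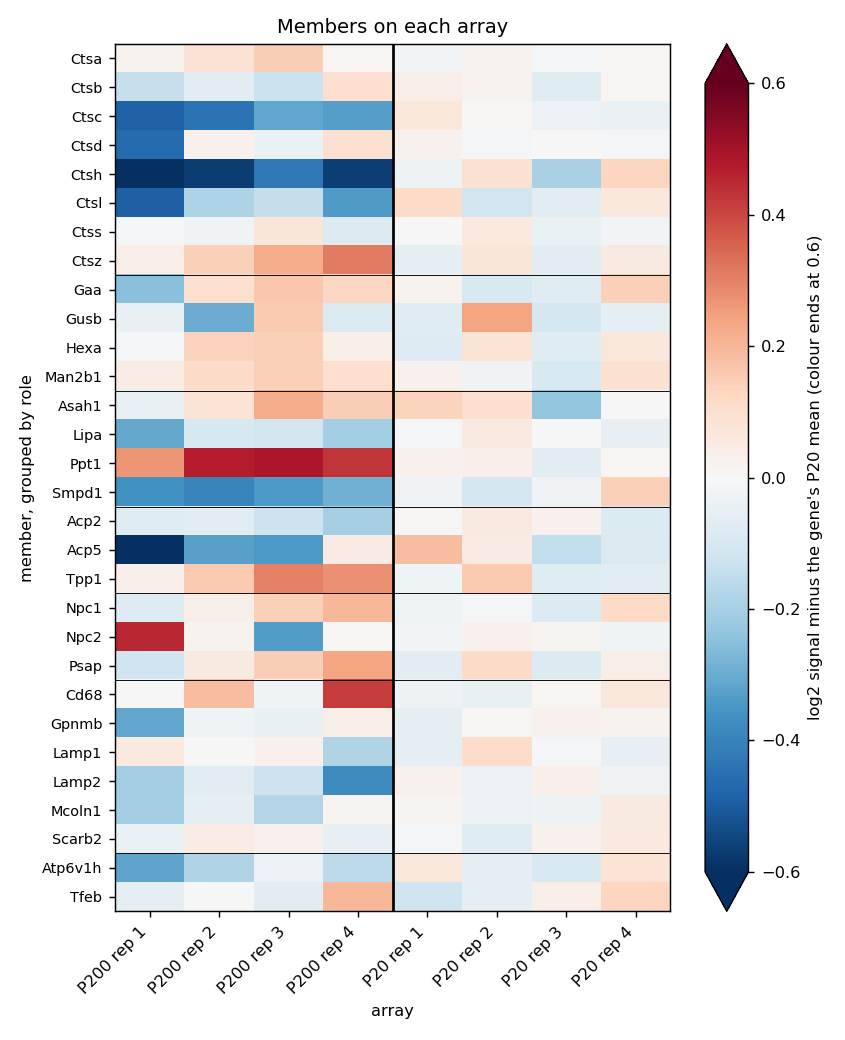
Deviation of each tested lysosomal gene from its P20 mean on each array, on the log2 scale, with P200 arrays left of P20 arrays and genes grouped by role. P200 replicate 1 carries the deepest negative values, among them Acp5 and Ctsd, while the P20 columns are nearly even.

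The P200 arrays were less alike than the P20 arrays. The SD was larger in P200 for 24 of the 30 genes (80%), against 63.9% of all genes, with a median SD of 0.11 in P200 and 0.08 in P20 (0.14 and 0.11 over all genes). P200 replicate 1 was the lowest P200 array for 19 of the 30 (63.3%), against 31.6% of all genes. P200 replicate 3 was the highest for 13 (43.3%), against 16.2% of all genes, and P200 replicate 4 for 11 (36.7%), against 40.2% of all genes. P200 replicate 1 is the lone P200 array of its slide row, and P20 replicate 1 the lone P20 array of the other. Across the rows Ctsd stood at 8.04 in P200 replicate 1, against 8.47 to 8.60 in the other P200 arrays, and at 8.53 in P20 replicate 1, against 8.49 to 8.50 in the other P20 arrays. The cathepsin median was -0.30 in P200 replicate 1, against -0.08 to -0.04 in the other P200 arrays, and 0.01 in P20 replicate 1, against -0.05 to 0.02 in the other P20 arrays. Among the 30 genes P20 replicate 1 was the highest P20 array only for Ctsb, Ctsc, Ctsd, Ctsl, Asah1 and Acp5. For the cathepsin median it lay within the range of the other P20 arrays. With 1 such array in each group, the slide row and the sample itself cannot be told apart, and neither was tested as the reason. Without P200 replicate 1 the same 4 genes passed, as without any other single array.

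E-box cores, the letters CACGTG, were searched for in the RefSeq promoters of build GRCr8, from 250 bases before to 50 after the start of each gene. The core, the longer TCACGTGA and the CLEAR element, which adds G before and C after it, are each read the same on both strands, and each longer motif contains the shorter one. Only exact matches were counted, so a near match to the CLEAR element is not in its counts. Promoters were held for 25 of the 31 genes, and 4 of the 25 (16%) contain the core: Ctsd, Gaa, Lamp1 and Mcoln1. The share over all 27457 promoters was 6.65%. TCACGTGA was present in 3 of the 25 (12%), those of Ctsd, Lamp1 and Mcoln1, against 0.867% of all promoters, and the CLEAR element in 0 of the 25, against 0.277% of all. Of 129 promoters of the further lysosomal genes described below, 28 (21.7%) contain the core, 13 (10.1%) TCACGTGA and 5 (3.88%) the CLEAR element. The stretches that hold the cores are shown because the genes behind them did not pass the test, with changes between -0.11 and 0.03. Capitals mark the core.
Ctsd promoter, chr1:206968822-206968990, minus strand: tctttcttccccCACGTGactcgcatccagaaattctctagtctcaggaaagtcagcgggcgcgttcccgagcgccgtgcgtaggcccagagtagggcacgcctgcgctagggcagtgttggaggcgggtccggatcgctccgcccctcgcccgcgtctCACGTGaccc
Gaa promoter, chr10:105028276-105028305, plus strand: ccgcccacaaacCACGTGacccacgctgcc
Lamp1 promoter, chr16:83075084-83075258, minus strand: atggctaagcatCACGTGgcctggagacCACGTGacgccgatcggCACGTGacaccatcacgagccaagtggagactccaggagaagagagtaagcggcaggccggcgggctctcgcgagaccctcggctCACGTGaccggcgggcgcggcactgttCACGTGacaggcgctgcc
Mcoln1 promoter, chr12:6358224-6358253, plus strand: cgtcaagcttgtCACGTGttcgacccaggc

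The Lamp1 stretch holds 5 cores between 183 and 38 bases before the start, and the Ctsd stretch 2, at 157 and 10 bases before it. Gaa has 1 core, 67 bases before its start, and Mcoln1 has 1 at 22 bases before its start and 1 after the start, which is not shown. The TCACGTGA of Mcoln1 is at the core after the start, so the Mcoln1 stretch above does not hold it. Of the 4 genes that passed the test, Ctsc, Ctsh and Smpd1 had a promoter in the table, and none of these 3 contains the core in this window. A match is a description of letters and says nothing of binding in these cells.

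Further lysosomal genes outside the 33 were drawn from lists of the same pathway, 170 names of which 161 were on the array and 142 were tested. In P200 2 were higher, 7 were lower and 133 did not pass, so 6.34% were past the test, against 11.5% of all genes. An unadjusted p under 0.05 (limma) was found for 36 (25.4%), against 23.8% of all genes. The groups did not overlap for 27 (19%), against 19.6% of all genes. Of these, 7 had their P200 arrays above (9.49% of all genes) and 20 had them below (10.1% of all genes). By direction, 5.99% of all genes were higher and 5.53% lower, the shares to set beside the counts of each list below. Their median change was -0.04.

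Plbd1, a phospholipase B-like protein, stood out among the further lipid hydrolases and activators, where 1 of 13 passed. Its level was 2.05, 2.30, 2.14 and 2.30 in P200 replicates 1 to 4, against 1.37, 1.57, 1.41 and 1.73 in P20 replicates 1 to 4. The groups did not overlap, and Plbd1 rose by 0.68 ± 0.10 in P200 (limma adjusted p = 0.00241). Of 21 further glycosidases and sulfatases only the arylsulfatase Arsa passed and rose, by 0.37 ± 0.08 (limma adjusted p = 0.0204). None of 6 further proteases passed, and none had an unadjusted p under 0.05, with the smallest adjusted p for cathepsin F, Ctsf, at 0.479 and a change of 0.12.

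Of 30 further membrane proteins 3 were lower in P200, against 5.53% of all genes. Tmem9, a lysosomal membrane protein, was above background on 0 of 4 P200 arrays, at a measured mean of -5.69, and on 4 of 4 P20 arrays, at -0.22. Its signal was at least 20.1-fold lower in P200 (limma adjusted p = 1.08e-07), where each dim array is set at the lowest signal that was well above background on it. The bound is relative to that floor and to this background correction: the Tmem9 change was -2.08 with the normexp background model and -2.52 with the deposited table of raw spot medians, both smaller than the bound and both past the test. Slc11a1, the phagosomal metal transporter Nramp1, fell by 0.52 ± 0.12 (limma adjusted p = 0.0232), and the two-pore channel gene Tpcn2 fell by 0.24 ± 0.07 (limma adjusted p = 0.0495).

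Of 19 further subunits of the proton pump 2 were lower in P200, against 5.53% of all genes, and the list median was -0.10. Atp6v0b, of the membrane ring, fell by 0.22 ± 0.06 (limma adjusted p = 0.0344). Atp6v1b1, an isoform best known from kidney, fell by 0.64 ± 0.14 (limma adjusted p = 0.0182) and was above background on only 2 P200 arrays. With normexp the Atp6v1b1 change was -0.12 (limma adjusted p = 0.546) and with the table of spot medians -0.24 (limma adjusted p = 0.182). Of the 4 protease inhibitors tested Serpinb6a fell by 0.33 ± 0.06 (limma adjusted p = 0.00543). Of 30 genes of delivery to the lysosome the adaptor subunit Ap3s1 fell by 0.34 ± 0.08 (limma adjusted p = 0.0211). Of 19 genes of the TFEB family and of its control by the kinase mTORC1 none passed (limma). An unadjusted p under 0.05 was found for 6 of 19, against 23.8% of all genes. All 6 changes were negative, those of Tfe3, Tfec, Rragc, Lamtor1, Lamtor3 and Lamtor4. In the whole list 11 changes were negative and 8 positive. The smallest adjusted p was that of the GTPase Rragc, at 0.0629 (limma) and a change of -0.19.

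**Figure D4:**
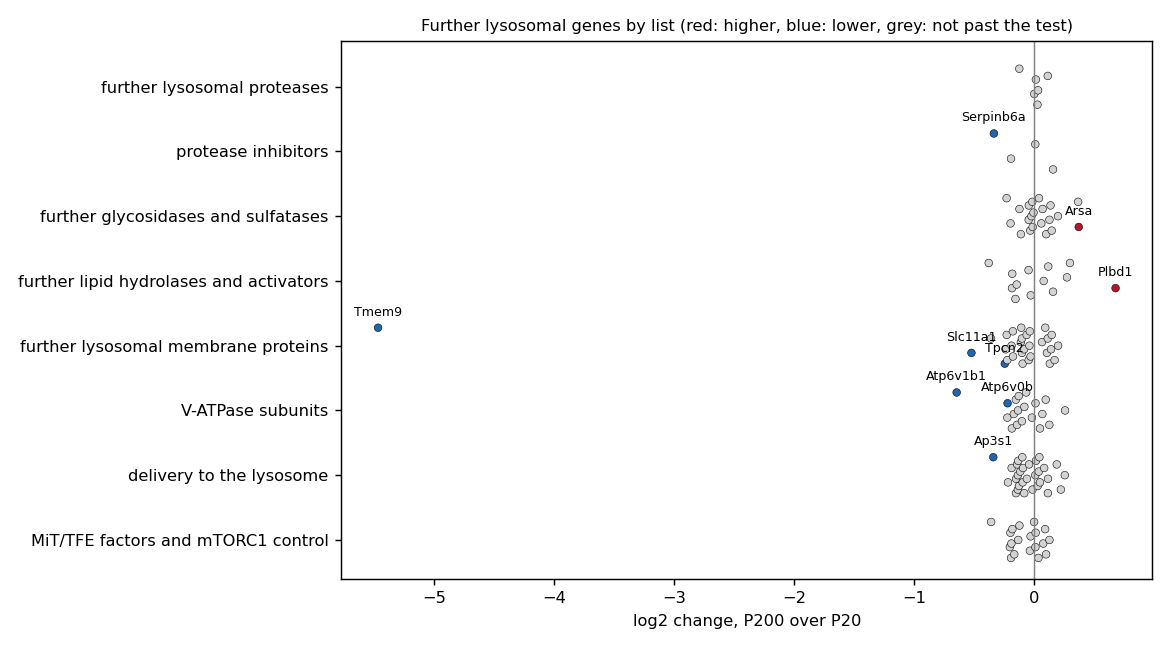
Change in log2 signal of P200 over P20 for the 142 further lysosomal genes tested, one point per gene and one row per list, with the 9 genes past the test named. Tmem9 lies far to the left, on dim P200 signals, and the other points crowd around 0.

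The calls of Ctsc, Smpd1 and Ppt1 were lost when the array median replaced the 75th percentile (limma adjusted p = 0.983, 1 and 1) and when dim probes were kept (0.0715, 0.127 and 0.0679). Ctsh lost its call under the array median (0.358) and kept it with dim probes (0.0446). The changes themselves were about as large under the array median, at -0.60 for Ctsh, -0.43 for Ctsc, -0.39 for Smpd1 and 0.38 for Ppt1, and the same as before with dim probes. Among the further genes, Tpcn2 passed in 4 of 18 alternative settings, Atp6v0b in 7, Atp6v1b1 in 10 of 17, Ap3s1 in 11, Arsa in 12, Slc11a1 in 13 and Serpinb6a in 16 of 18. Plbd1 passed in 17 of 18 and Tmem9 in all 17 that could test it.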

How the data were processed

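RNA of 4 P200 and 4 P20 samples was hybridised to one-colour (Cy3) Agilent arrays. The deposited scanner files give spot intensity on a linear scale, read with Agilent Feature Extraction 11.0.1.1 per the submitters' processing notes and the file headers, background-subtracted within each array and not normalized between arrays. The deposited value table repeats these arrays as unprocessed median intensity per spot. Its P200 columns 1, 2, 3 and 4 hold scanner arrays 2, 3, 4 and 1, and replicate numbers here are those of the scanner files.

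Controls (4259 of 62976 spots) and outlier spots were left out, spots of a probe were averaged, and 84 of 45598 probes without a usable spot on some array were dropped. The log2 of processed signal was taken less the array's 75th percentile over probes, which was 197 to 369. A probe entered if well above background (a mark on at least 0.5 of its spots) on all 4 arrays of a group, which left 19458 probes. The probe with the highest mean represented a gene. Names came from RefSeq (GRCr8) (21109 probes matched on accession, 7108 on a symbol or synonym), and 17381 kept the file's name. Positions are the files' own on rn4.

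P200 was compared with P20 by limma 3.58.1 in R 4.3.3 (lmFit and eBayes, no covariate, two-sided, Benjamini-Hochberg over 15651 genes, threshold 0.05), which called 1804 genes. On simulated data for this comparison over 15651 genes, 43 of 100 genes changed by 0.5 and 86 of 100 changed by 1 were recovered, with 7 false calls. Far fewer genes changed in the simulation than the 1804 called here, which makes its adjusted threshold stricter. Its recovery is therefore not that of the real fit, for which the share missed at 0.5 is unknown. With 4 arrays a group, their number limits precision.

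The members and lists were chosen with earlier results of these data known. Per-array values are given for members past the test or with groups that do not overlap, and for others where 1 array stands apart, which were chosen after their values were seen. Of each further list at most 3 genes past the test with the largest change are named, or the one with the smallest adjusted p. Deviations of same-numbered samples correlated at 0.03, 0.13, -0.00 and 0.28 for replicates 1 to 4, so the numbers were not taken as pairs. The alternatives were normexp with offset 50, centring, quantile normalization, filters, probe rule, the value table, an intensity trend, slide row and replicate number as blocks, and leaving out each array. Within-row differences were added after seeing the data.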

Additional observations from a re-analysis of the deposited data

Results flagged for a closer look

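In 4 of 92 groups of 4 arrays examined, 1 array lay far from the other 3, by Dixon's ratio of the gap to the whole range at its 95% critical value. Chance gives this in about 1 in 20 groups. Ctsd and Acp5 in P200, where replicate 1 was the lowest array, did not reach the critical value. The glycogen hydrolase Gaa stood at 3.25 in P200 replicate 1, against 3.60 to 3.67 in the other P200 arrays. The glucuronidase Gusb stood at 1.23 in P20 replicate 2, against 0.89 to 0.94 in the other P20 arrays. The metal transporter Slc11a1, which was lower in P200, stood at 4.61 in P20 replicate 4, against 4.35 to 4.37 in the other P20 arrays. The endothelial marker Flt1, above background on no P20 array, stood at -2.40 in P200 replicate 4, against -1.69 to -1.57 in the other P200 arrays.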

How the results depend on the processing

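Of 18 alternatives, 16 left the 4 lysosomal genes past the test (Ctsh, Ctsc, Smpd1 and Ppt1), and in them the count stayed at 4 except with slide row as a block, which gave 5 by adding Ctsl. With the array median 0 passed (limma, with 2 at an unadjusted p under 0.05), and with no filter on dim probes 1 passed, Ctsh. Over all genes these 2 settings called 653 (286 higher and 367 lower) and 812 (389 higher and 423 lower), against 1804 (938 higher and 866 lower), and the cause was not tested. They shifted the median change of all genes by -0.04 and 0.10. Leaving out each array in turn gave 1269 to 1694 genes and 4 lysosomal genes each time, with a median change of -0.14 to -0.02 for the cathepsins and 0.02 to 0.11 for the glycosidases and lipid enzymes. With the replicate number as a block 1503 genes and the same 4 lysosomal genes passed. The samples share only a number, and of the 4 pairs only replicate 4 correlated best with its own.

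Changes that turned sign were all of genes that did not pass and lay near 0. Gaa was -0.009 with normexp, -0.004 with the array median, -0.027 with the value table and -0.069 with slide row as a block. Npc2 was -0.094, -0.001 and -0.105 under the first 3 of these, and Tfeb -0.008, -0.018 and -0.014. Lamp1 was 0.022 with slide row as a block and Scarb2 0.002 with the value table. Leaving out each array in turn gave -0.159 to 0.029 for Ctsd, -0.04 to 0.012 for Ctss, -0.01 to 0.128 for Gaa, -0.143 to 0.011 for Gusb, -0.102 to 0.159 for Npc2, -0.051 to 0.028 for Lamp1, -0.028 to 0.016 for Scarb2 and -0.041 to 0.063 for Tfeb. The change of the dim gene Acp5 ran from -1.04 with slide row as a block to -0.16 with normexp.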
